A study of Homo sapiens with 6 samples.

Results

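Actin is the most abundant cytoskeletal protein of a blood cell, and it cycles between free monomers and filaments. Profilin feeds monomers to growing filament ends, thymosins hold monomers in reserve, cofilins cut old filaments, the Arp2/3 complex starts branches, and myosin II pulls on filaments. The transcription factor SRF, with the cofactors MRTFA and MRTFB that bind free actin monomers, drives many actin genes from a DNA element called the CArG box, so that the genes and the state of actin are linked.

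The genes described here are 53 genes for actin, proteins that act on it and SRF, taken from the 20348 genes of the deposited table by their symbols. All 53 symbols were found. The list was drawn up by function, but with fold changes of this same contrast already known, so fold changes and calls of its members are a description and no p-value is attached to them. RNA-seq was done on MV4-11 cells, an established human acute myeloid leukemia line with a *KMT2A* fusion and an internal tandem duplication of *FLT3*. There were 3 Control samples, labelled untreated, and 3 samples given 1 μM WNK463, an inhibitor of the WNK kinases, for 48 h. A single cell line, dose and time point were sequenced, and the labels do not say whether the 3 samples of a group were separate cultures, so errors measure the spread between these samples, which may be technical.

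Total counts per sample lay between 14915745 and 17411780. Of 10 myeloid markers, 8 reached 1 TPM (transcripts per 1000000 transcripts, a level corrected for transcript length) in some sample, and *ANPEP* and *CD14* did not. Their summed TPM was 2304 to 2476 in Control and 1224 to 1261 with WNK463, with *LYZ* at 1641 to 1765 TPM and 407 to 434 TPM. *PTPRC*, *CSF1R* and *ITGAM* of the same markers rose, with log2 fold changes of 1.2, 0.97 and 1.25. *LYZ*, *MPO*, *ANPEP*, *CD33* and *FLT3* fell, with log2 fold changes of -2.22, -2.50, -1.46, -0.38 and -0.20. *SPI1* (0.002) did not pass. All 6 fibroblast and all 4 endothelial markers stayed below 1 TPM, and all 4 erythroid markers were listed at 0. The summed TPM of 6 smooth muscle markers was 7.83 to 10.8 in Control and 18.8 to 21.7 with WNK463, with the difference in *TAGLN*, while 4 of them, *MYH11*, *CNN1*, *LMOD1* and *DES*, stayed below 1 TPM in all samples. That of 5 platelet markers was 8.70 to 11.0 and 27.3 to 28.5, mostly *ITGA2B*, with *PF4*, *PPBP* and *GP9* below 1 TPM. The part of these cell types in the values below was not tested.

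Because the list is tied to SRF, the promoters of its members were searched for the CArG box. This box is CC and GG around 6 bases that are each A or T. As a pattern it is the same on both strands, though a single box need not read the same. RefSeq windows of GRCh38.p14, from 250 bases before to 50 after a gene's start, were matched by symbol for 48 members, with 79 windows. The others were *ACTB*, *ARPC1B*, *FSCN1*, *MYL9* and *WASF2*. A box was found for 5 of the 48 members (10.4%), against 438 of 27305 genes in the whole promoter table (1.60%). By window the share was 6.33% against 1.29%. With 1 of the 6 central bases free to be G or C, 13 members (27.1%) and 9.88% of all genes had a box. The list holds *SRF* and known SRF targets, so its choice itself favours a higher share. The matches are given on the gene's own strand, with the boxes in capitals, since they are the part of the sequence that the name of the list refers to.
SRF, chr6:43171229-43171268, plus strand: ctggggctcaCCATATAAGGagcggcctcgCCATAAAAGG
ACTG1, chr17:81512874-81512903, minus strand: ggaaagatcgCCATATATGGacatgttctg
ACTN1, chr14:68977718-68977747, minus strand: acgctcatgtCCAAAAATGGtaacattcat
TPM4, chr19:16067355-16067384, plus strand: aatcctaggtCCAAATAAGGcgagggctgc
FLNA, chrX:154374709-154374738, minus strand: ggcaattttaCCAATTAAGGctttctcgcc
The boxes of *SRF* begin 30 and 10 bases before its start, those of *ACTG1* and *FLNA* 94 bases before, and that of *TPM4* 173 bases before. The box of *ACTN1* begins 171 bases before an internal RefSeq start, downstream of the gene's first start. In GENCODE 29 the *SRF* stretch overlaps no gene, the *ACTG1* stretch lies in an annotated *ACTG1* exon, the *ACTN1* and *TPM4* stretches lie inside their own genes but in no exon, and the *FLNA* stretch lies in an exon of the antisense gene *AC245140.3*. The levels of these 5 genes did not move together. *ACTN1* and *TPM4* fell by 0.89 and 0.80 on the log2 scale, *ACTG1* fell by 0.34, *FLNA* rose by 0.27, and *SRF* itself had a log2 fold change of -0.08 that did not pass.

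Counts were normalized with edgeR's TMM method and are given as CPM, counts per 1000000 of the normalized library. Log2 fold changes compare WNK463 with Control and come with their standard error (SE), and a gene is said to rise or fall where edgeR's quasi-likelihood test passed an adjusted p of 0.05 over all genes tested. *MYL9*, the smooth muscle form of the myosin regulatory light chain, had a count of 0 in all 6 samples and was not tested. Of the 52 members tested, 15 rose, 26 fell and 11 did not pass. Over all 11973 genes tested, 70.8% passed, 35.5% higher and 35.3% lower. Most changes were small, and 27 of the 41 were below 1.5-fold. With a limit of 2-fold as well, 1 member rose and 3 fell, where 9.62% of all genes rose and 5.55% fell. The 3 WNK463 values lay wholly above the 3 Control values for 15 members and wholly below for 25, against 37.1% and 36.4% of all genes tested.

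The scaling matters for this list, since its changes are small. When libraries were scaled by their total counts alone, the median log2 fold change of all genes moved by 0.15, and 23 members rose and 22 fell, against 46.1% and 26.1% of all genes. The median over the members was -0.14 with TMM and 0.01 with total counts, which is 0.15 below the median of all genes in both cases. All 15 members that rose and 22 of the 26 that fell kept their direction and their call with total counts. *CAPZA1*, *ARPC3*, *WAS* and *WASF2* lost it. *DSTN*, *COTL1*, *CAPG*, *ACTR3*, *ARPC1B*, *ARPC5L*, *CORO1A* and *VCL*, which did not pass with TMM, passed as higher with total counts, at log2 fold changes of 0.27, 0.17, 0.20, 0.13, 0.14, 0.25, 0.15 and 0.15. All of these but *ACTR3* also passed as higher on the TPM scale. The plot of members by role shows both scalings.

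**Figure D1:**
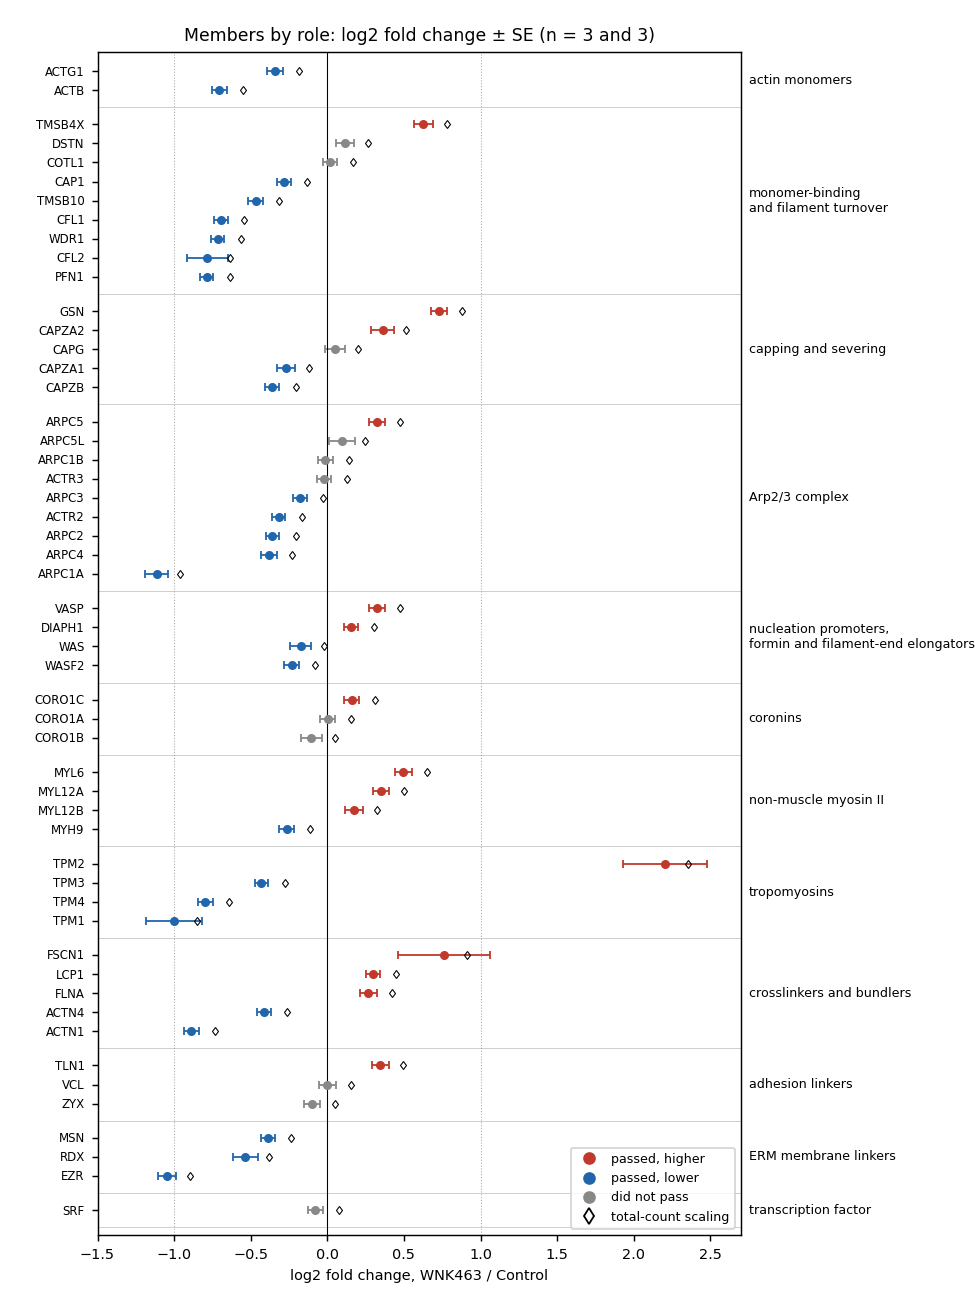
Log2 fold change of the 52 tested members (WNK463 over Control, horizontal axis), grouped by role, with bars for ± 1 SE and colour for the call. Diamonds give the value with total-count scaling, which lies to the right for all members and turns the sign of *SRF*, *ZYX*, *CORO1B*, *ACTR3* and *ARPC1B*, none of which passed with TMM.

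*ACTB* (ENSG00000075624) and *ACTG1* (ENSG00000184009) encode the β and γ cytoplasmic actins. *ACTB* had 7948, 7458 and 7364 CPM in the Control samples and 4791, 4435 and 4752 CPM with WNK463. The groups were far apart, and the log2 fold change was -0.70 (SE 0.05, n = 3 each). *ACTG1* had 4876, 4350 and 4347 CPM in Control and 3625, 3393 and 3709 CPM with WNK463, again without overlap, with a log2 fold change of -0.34 (SE 0.05, n = 3 each). Both actins fell with TMM and with total counts, but *ACTG1* did not pass on log2(TPM + 1) with no filter (-0.16) or against a limit of 1.2-fold. On the TPM scale, which allows genes to be compared, *ACTB* was 1.72, 1.79 and 1.77 times as abundant as *ACTG1* in the Control samples and 1.40, 1.38 and 1.36 times with WNK463. This ratio is taken within a sample and does not depend on scaling. The sum of *ACTB* and *ACTG1* was 12114 ± 617 CPM in Control and 8235 ± 353 CPM with WNK463 (SD, n = 3 each). In bulk RNA, fewer cells with a transcript and less of it per cell cannot be told apart.

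The actins were also the members with the largest share of the transcript pool. They made up 1.19% to 1.28% of the summed TPM in Control and 0.904% to 0.965% with WNK463. The other 51 members together held 2.04% in each Control sample and 2.07% to 2.11% with WNK463. Of the 10 members with the highest Control level, between 716 and 7792 TPM, 7 fell, 2 rose and 1 did not pass. Over all genes tested, 35.3% fell and 35.5% rose. With total counts *ARPC3* of these members lost its call (-0.03) and *CORO1A* passed as higher (0.15).

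**Figure D2:**
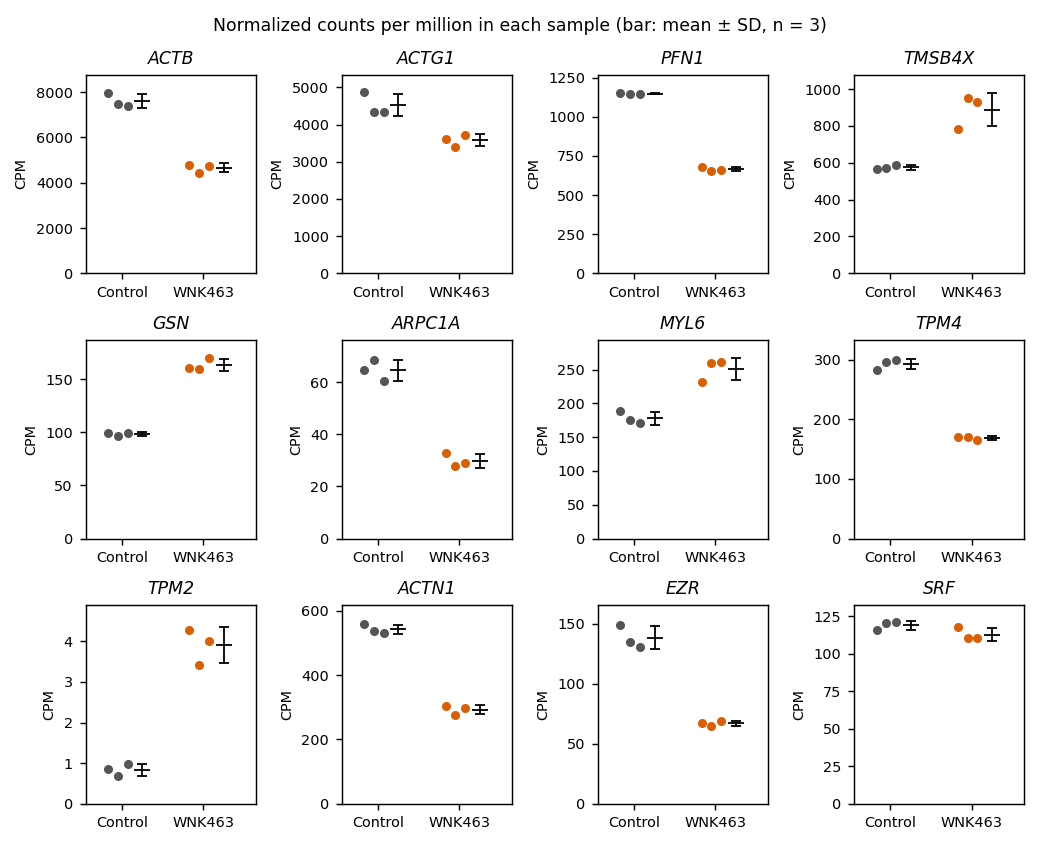
CPM of 12 members in each sample (points), with the mean ± SD of 3 samples beside them and vertical axes that start at 0. The groups do not overlap for 11 of them, while the *SRF* values of the 2 groups overlap between 115.5 and 117.5 CPM. The 12 were picked by hand, so this count does not describe the members as a whole. Of the 52 tested members, 15 lay wholly above Control and 25 wholly below. For 73.5% of all genes tested the groups did not overlap.

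*ACTB* served as the loading control in the study's qPCR, so it was set beside other genes that are commonly used for this purpose. With TMM, 9 of the 13 described here, *ACTB* included, fell, 1 rose and 3 did not pass, where 35.3% of all genes fell and 35.5% rose. The glycolytic enzymes *GAPDH* and *PGK1* fell by 0.62 and 0.65 on the log2 scale, and *HPRT1*, *TBP*, *SDHA* and *GUSB* by 0.54, 0.39, 0.36 and 0.33. The ribosomal protein genes *RPL13A* and *RPLP0* fell by 0.18 and 0.12. The call of *RPLP0* lay at the threshold and was lost without Control replicate 1 (-0.06) or any one WNK463 replicate (-0.14 to -0.11), and with at least 10 counts in every sample (-0.10). *B2M*, the light chain of MHC class I, rose by 0.55. *PPIA*, *TFRC* and *YWHAZ* had log2 fold changes of -0.03, 0.02 and 0.05 and did not pass with TMM, while all 3 passed as higher with total counts (0.13, 0.17 and 0.20). With total counts, 4 of the 13 rose and 7 fell, against 46.1% and 26.1% of all genes, and *ACTB* had a log2 fold change of -0.55. A transcript with no change on the TMM scale would stand 1.63-fold higher with WNK463 when divided by *ACTB*, and one with no change on the total-count scale 1.47-fold higher.

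**Figure D3:**
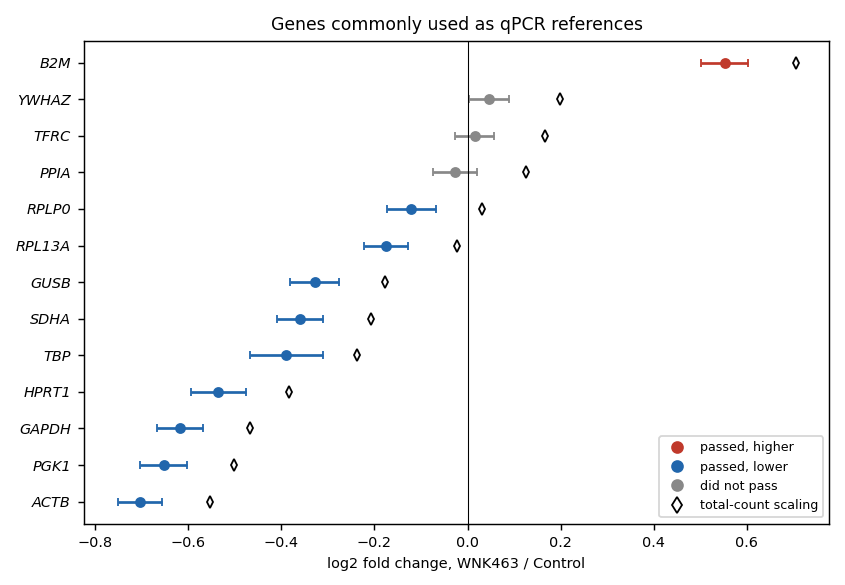
Log2 fold change (WNK463 over Control) ± SE of 13 genes commonly used as qPCR references, with diamonds for total-count scaling. Of the genes plotted, *ACTB*, *PGK1* and *GAPDH* are lowest and *B2M* is highest under both scalings, while *PPIA* and *RPLP0* change sign between them.

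Of 9 proteins that bind monomers or turn filaments over, 6 fell, 1 rose and 2 did not pass, where 35.3% of all genes fell and 35.5% rose. With total counts 6 of the 9 fell and 3 rose, against 26.1% and 46.1% of all genes. *PFN1* (ENSG00000108518), profilin, had 1151, 1145 and 1149 CPM in Control and 680.9, 654.8 and 659.7 CPM with WNK463, a log2 fold change of -0.79 (SE 0.04, n = 3 each). The 3 Control values were nearly equal, and the WNK463 values lay wholly below them. *CFL1*, the main cofilin of non-muscle cells, fell by 0.69 on the log2 scale, its partner in severing *WDR1* by 0.72, and the muscle-type cofilin *CFL2* by 0.78. *CAP1*, which recharges monomers, fell by 0.28, but did not pass on the TPM scale.

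The related genes of this group moved apart. *TMSB4X*, thymosin β4, averaged 574 ± 11.3 CPM in Control and 887 ± 90.6 CPM with WNK463 (SD, n = 3 each) and rose by 0.63 (SE 0.06), while *TMSB10*, thymosin β10, fell by 0.47. The TPM ratio of *TMSB4X* to *TMSB10* was 2.74, 2.91 and 2.88 in the Control samples and 5.34, 6.52 and 6.25 with WNK463. *DSTN*, destrin, also of the cofilin family, had a log2 fold change of 0.11 and did not pass with TMM, while it passed as higher with total counts (0.27) and on the TPM scale (0.26). The ratio of *CFL1* to *DSTN* went from 23.9, 22.6 and 22.6 to 14.5, 13.1 and 13.1. The ratio of *CFL1* to *CFL2* overlapped between the groups. *COTL1*, which binds filaments beside cofilin, had a log2 fold change of 0.02 and did not pass with TMM, but passed as higher with total counts (0.17) and on the TPM scale (0.21).

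Among the 5 capping and severing proteins, 2 rose and 2 fell, where 35.5% and 35.3% of all genes did. With total counts 3 rose and 1 fell, against 46.1% and 26.1% of all genes. *GSN* (ENSG00000148180), gelsolin, which cuts and caps filaments on calcium, had 99.85, 96.37 and 99.35 CPM in Control and 160.6, 159.5 and 169.8 CPM with WNK463. The groups were apart, with a log2 fold change of 0.73 (SE 0.05, n = 3 each). *CAPZB*, the β subunit of capping protein, had 312, 314 and 318 CPM in Control and 251, 237 and 247 CPM with WNK463, a log2 fold change of -0.36 (SE 0.04, n = 3 each). Its alternative α subunits went opposite ways, with *CAPZA2* up by 0.36 and *CAPZA1* down by 0.27. *CAPZA1* passed neither with total counts nor on the TPM scale, but the TPM ratio of *CAPZA1* to *CAPZA2* was lower in each WNK463 sample (3.28, 2.95 and 2.92) than in each Control sample (4.67, 4.28 and 4.30). *CAPG*, a gelsolin relative of macrophages, had a log2 fold change of 0.05 and did not pass.

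The Arp2/3 complex starts new filaments on the side of old ones. Of its 9 genes, 5 fell, 1 rose and 3 did not pass with TMM, where 35.3% of all genes fell and 35.5% rose. With total counts 4 fell and 4 rose, against 26.1% and 46.1% of all genes. The core subunits *ACTR2*, *ARPC2* and *ARPC4* fell by 0.32, 0.36 and 0.38 on the log2 scale, while *ACTR3*, which pairs with *ACTR2*, had -0.02 and did not pass (0.13, passed as higher, with total counts). *ARPC3*, the most abundant by TPM, had 339, 357 and 370 CPM in Control and 307.5, 312.7 and 320.4 CPM with WNK463. These groups were apart with TMM, but its fold change of -0.18 (SE 0.05, n = 3 each) did not pass with total counts and turned to 0.019 on the TPM scale. Of the exchangeable subunits, *ARPC1A* (ENSG00000241685) had 64.5, 68.5 and 60.4 CPM in Control and 32.8, 27.7 and 28.8 CPM with WNK463, a log2 fold change of -1.11 (SE 0.07, n = 3 each). *ARPC1B*, the form that predominates in blood cells, had -0.01 (SE 0.05) and did not pass, but passed as higher with total counts (0.14) and on the TPM scale (0.17). The TPM ratio of *ARPC1B* to *ARPC1A* was thus 4.73, 4.51 and 4.85 in Control and 8.82, 10.5 and 10.9 with WNK463. *ARPC5* rose by 0.33, and its relative *ARPC5L* had 0.09 and did not pass.

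*ARPC1A* and *ARPC1B* are neighbours on chromosome 7 of GRCh38, from 99325898 to 99366262 and from 99374259 to 99394816, with 7996 bases between them. Their counts carry an uncertainty, because GENCODE 29 annotates a read-through gene across both, *AC004922.1*. Of the distinct 64-base stretches in annotated transcripts, 55.4% of those of *ARPC1A* and 26.3% of those of *ARPC1B* also occur in another gene. The read-through gene itself was given 0 to 56 counts in a sample. The same share was 21.0% for *CORO1B*, which overlaps *PTPRCAP*, and 12.6% for *ARPC4*, which is part of the read-through gene *ARPC4-TTLL3*, with 47 to 164 counts. The other 49 members were below 10%, and 20 shared no such stretch. *ACTB* and *ACTG1* shared no stretch with each other, and 2.19% and 0.617% of their stretches occurred in pseudogenes or other genes.

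Of 4 proteins that start or extend filaments under signals, 2 rose and 2 fell with TMM, and with total counts 2 rose and 0 fell. The shares of all genes that rose and fell were 35.5% and 35.3% with TMM, and 46.1% and 26.1% with total counts. *VASP*, which extends filament ends, had 240.1, 220.1 and 212.9 CPM in Control and 278.9, 271.9 and 292.1 CPM with WNK463, and rose by 0.32 (SE 0.05, n = 3 each) with no overlap. The formin *DIAPH1* rose by 0.15, a call lost without Control replicate 2 (0.13) or Control replicate 3 (0.12). *WAS*, the Arp2/3 activator of blood cells, had a log2 fold change of -0.17, and its groups overlapped. That call was lost with total counts and without Control replicate 1 (-0.14), Control replicate 2 (-0.18) or WNK463 replicate 2 (-0.09), and the sign turned on the TPM scale (0.07). *WASF2*, a WAVE protein, fell by 0.23 with TMM and passed neither with total counts nor on the TPM scale.

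Of the 3 coronins, which steer Arp2/3 and cofilin, 1 rose with TMM and 2 with total counts. Among all genes tested, 35.5% rose with TMM and 46.1% with total counts. *CORO1A*, the coronin of leukocytes, had 677.4, 608.5 and 590.6 CPM in Control and 613.1, 636.6 and 628.4 CPM with WNK463. The groups overlapped, with a log2 fold change of 0.00 (SE 0.05, n = 3 each) that passed as higher at 0.15 with total counts and 0.20 on the TPM scale. *CORO1C* had 117.2, 123.5 and 125.1 CPM in Control and 135.5, 132.3 and 140.3 CPM with WNK463, a rise of 0.16 (SE 0.05, n = 3 each) that was lost without WNK463 replicate 3 (0.13). *CORO1B* had -0.10 and did not pass.

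In non-muscle myosin II the heavy chain and the light chains went opposite ways. *MYL6*, the essential light chain, had 188.5, 174.6 and 170.4 CPM in Control and 232.1, 258.9 and 261.8 CPM with WNK463, and rose by 0.50 (SE 0.06, n = 3 each) without overlap. The regulatory light chains *MYL12A* and *MYL12B* rose by 0.35 and 0.17, the latter not without Control replicate 2 (0.14) or WNK463 replicate 2 (0.13). The heavy chain *MYH9* averaged 1129 ± 46.9 CPM in Control and 940.2 ± 55.3 CPM with WNK463 (SD, n = 3 each) and fell by 0.26, but did not pass on the TPM scale. *MYL12A* and *MYL12B* lie 5895 bases apart on chromosome 18.

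All 4 tropomyosins, which coat filaments and decide which proteins bind them, changed, where 70.8% of all genes tested passed. *TPM3*, the most abundant, had 772, 734 and 750.4 CPM in Control and 563.6, 543.6 and 568.5 CPM with WNK463, a log2 fold change of -0.43 (SE 0.04, n = 3 each). *TPM4* fell by 0.80, with means of 293 ± 9.06 CPM in Control and 169 ± 2.69 CPM with WNK463 (SD, n = 3 each). The remaining genes were expressed at a low level. *TPM1* had 5.48, 6.38 and 6.40 CPM in Control and 3.02, 2.91 and 3.19 CPM with WNK463, a log2 fold change of -1.0 (SE 0.18, n = 3 each) that lies at the 2-fold limit. *TPM2* (ENSG00000198467), a form typical of muscle, had 0.852, 0.686 and 0.976 CPM in Control and 4.29, 3.43 and 4.02 CPM with WNK463, a log2 fold change of 2.20 (SE 0.28, n = 3 each). This was the largest change among the members, at 1.39 TPM in Control and 7.29 TPM with WNK463. *TPM2* lies on chromosome 9, 6891 bases from *TLN1*.

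Of the 5 proteins that crosslink filaments, 3 rose and 2 fell, where 35.5% and 35.3% of all genes did. *ACTN1* had 557.9, 535.6 and 531.0 CPM in Control and 303.1, 276.7 and 298.6 CPM with WNK463, a log2 fold change of -0.89 (SE 0.05, n = 3 each). *ACTN4*, the other α-actinin of non-muscle cells, fell by 0.41, so both fell but not to the same extent. Their TPM ratio was 1.46, 1.34 and 1.29 in Control and 1.01, 0.997 and 1.06 with WNK463. *LCP1*, the plastin of leukocytes and the most abundant of the group, had 1692, 1652 and 1681 CPM in Control and 2134, 1988 and 2053 CPM with WNK463. It rose by 0.30 (SE 0.04, n = 3 each) with no overlap, and the filamin *FLNA* rose by 0.27. *FSCN1*, fascin, was below 2 TPM on average in both groups and rose by 0.76 (SE 0.30). That call was lost without any one of 4 samples (Control replicates 1 and 2 and WNK463 replicates 2 and 3, values from 0.63 to 0.76). In separate fits it was also lost under the replicate block (0.76), with DESeq2 (0.76) and with no filter on low counts (0.75). It was lost against a limit of 1.2-fold as well (0.76).

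Among proteins that tie filaments to integrins, *TLN1*, talin, had 919, 831 and 800.0 CPM in Control and 1124, 1014 and 1101 CPM with WNK463. It rose by 0.34 (SE 0.05, n = 3 each), and the lowest WNK463 value was above the highest Control value. *ZYX*, zyxin, had 404, 389 and 377 CPM in Control and 386, 344 and 362 CPM with WNK463. Its groups overlapped, and its log2 fold change of -0.10 (SE 0.05, n = 3 each) did not pass. *VCL*, vinculin, a textbook SRF target, had 0.00 (SE 0.05) and did not pass with TMM, but passed as higher with total counts (0.15) and on the TPM scale (0.20).

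All 3 ERM proteins, which link filaments to the plasma membrane, fell, where 35.3% of all genes tested did. *EZR* (ENSG00000092820), ezrin, had 149, 135 and 131 CPM in Control and 67.0, 65.1 and 68.9 CPM with WNK463, a log2 fold change of -1.05 (SE 0.06, n = 3 each). *MSN*, moesin, the main form in leukocytes, had 1975, 1896 and 1911 CPM in Control and 1537, 1392 and 1493 CPM with WNK463, and fell by 0.39 (SE 0.05, n = 3 each). *RDX*, radixin, fell by 0.53. The groups did not overlap for any of the 3, while 36.4% of all genes tested lay wholly below Control. By TPM, *MSN* was 10.2, 10.8 and 11.2 times as abundant as *EZR* in Control and 17.7, 16.5 and 16.7 times with WNK463, while its ratio to *RDX* overlapped between the groups.

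*SRF* (ENSG00000112658) had 115.5, 120.4 and 121.0 CPM in Control and 117.5, 110.2 and 110.5 CPM with WNK463. The groups overlapped, and the log2 fold change of -0.08 (SE 0.05, n = 3 each) turned to 0.07 with total counts and passed under neither. The SRF pathway outside the list was followed in lists of cofactors and targets written for this description. Of 6 tested of 8 cofactors, 1 passed with TMM, and it fell, where 70.8% of all genes passed. With total counts 3 rose and 1 fell, against 46.1% and 26.1% of all genes. The gene that fell was *MRTFB*, with 74, 45 and 80 counts in Control and 6, 5 and 6 counts with WNK463, a log2 fold change of -3.57 (SE 0.34). By TPM it had 0.939, 0.937 and 1.449 in Control and 0.089, 0.072 and 0.755 with WNK463. On that scale WNK463 replicate 3 lay close to the lower Control values. *MRTFA*, the main MRTF here, at 99.9 TPM on average in Control against 1.11 TPM for *MRTFB*, had a log2 fold change of 0.10 (SE 0.05) and did not pass with TMM.

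Of 23 other genes known as targets of SRF with MRTF, 13 had too few counts to be tested, 4 rose and 1 fell, and with total counts 5 rose and 0 fell. *TAGLN*, transgelin of smooth muscle, averaged 5.61 ± 1.73 CPM in Control and 15.5 ± 0.638 CPM with WNK463 (SD, n = 3 each) and rose by 1.47. *ITGB1*, the β1 integrin, and *JUNB* rose by 0.52 and 0.33. *TAGLN2*, the transgelin of leukocytes, fell by 0.22, but did not pass with total counts. Of 10 immediate early genes, which SRF drives with the ternary complex factors, 9 were tested, 6 rose and none fell. Over all genes tested, 35.5% rose and 35.3% fell. With total counts 7 of these rose and 0 fell, where 46.1% and 26.1% of all genes did. *FOS*, *EGR1* and *NR4A1* had log2 fold changes of 0.17 (SE 0.08), 0.05 (SE 0.12) and -0.56 (SE 0.27) and did not pass with TMM. *MCL1*, an anti-apoptotic gene, rose by 0.37, and the transcription factors *FOSB* and *EGR3* rose by 1.89 and 1.16 from 1.32 and 1.33 CPM.

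Regulators of actin outside the list went both ways. Among 20 tested of 23 partners of WAVE and WASP and other formins, 11 rose and 4 fell, where 35.5% and 35.3% of all genes did. With total counts 12 rose and 2 fell, against 46.1% and 26.1% of all genes. The formins *FMNL3* and *DAAM1* rose by 0.96 and 1.01 and the WAVE partner *ABI3* by 1.30, while *INF2* and *DIAPH3*, also formins, each fell by 0.64 and *CYFIP2* by 0.34. The call of *CYFIP2* was lost with total counts (-0.19), on the TPM scale (-0.14) and without WNK463 replicate 2 (-0.26).

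Of 29 tested of 38 other proteins that bind actin, 10 rose and 14 fell, where 35.5% and 35.3% of all genes did. With total counts 11 rose and 11 fell, against 46.1% and 26.1% of all genes. *SPTAN1*, spectrin, rose by 0.85, and *TMOD2* and *CTTN*, cortactin, rose as well, at means of 1.24 and 0.165 CPM in Control and 4.31 and 1.64 CPM with WNK463. The Control counts of *CTTN* were 1, 1 and 6. *LIMA1*, which stabilizes filament bundles, fell by 1.68, *CORO7* by 0.68, and *PLS3*, a plastin of non-blood tissues, by 2.78. The KEGG pathway for regulation of the actin cytoskeleton, as annotated in the deposited table, held 217 genes, of which 152 were tested, 59 rose (38.8%) and 57 fell (37.5%), where 35.5% and 35.3% of all genes did. With total counts 76 rose and 42 fell, against 46.1% and 26.1% of all genes. Without the 28 members it contains, 53 rose and 40 fell of 125 tested, and with total counts 66 rose and 27 fell.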

How the data were processed

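mRNA captured on beads from 3 Control and 3 WNK463 samples was sequenced on an Illumina Novaseq X Plus. The authors deposited 1 table with estimated counts per gene, rounded to whole numbers (62 values of 0 stand beside a TPM above 0), and TPM values, which the authors scaled to 1000000 per sample. The submitters' processing notes name fastp, Bowtie2, HISAT2, StringTie, RSEM, DESeq2, edgeR and GRCh38, with no role. The deposited log2 fold changes, p-values and mean TPM hold the authors' own comparison and were not used.

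Counts were put through the quasi-likelihood test of edgeR 4.0.16 in R 4.3.3 (TMM, filterByExpr at its defaults, no block for replicate number, Benjamini-Hochberg adjustment over 11973 genes), after a check on simulated data. Few genes were changed in the simulation, in both directions and with a fixed dispersion, so the check did not test the scaling. Each SE was derived from the fold change and its F statistic. TMM factors were 0.944 to 0.951 in Control and 1.05 to 1.06 with WNK463. No 2 replicates agreed within sampling noise (chi-square per degree of freedom 2.66 to 7.42). With 3 against 3, an exact permutation test cannot go below p = 0.10, and none was run.

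The members and lists were chosen with earlier results of these data known. Values in every sample are given for *ACTB*, *ACTG1* and *SRF*, for members called at 2-fold (*ARPC1A*, *TPM1*, *TPM2*, *EZR*), and in each of the 12 roles for the most abundant member and that with the largest fold change. Outside the members, up to 3 called genes per list and direction with the smallest p are named. *MRTFA*, *FOS*, *EGR1*, *NR4A1* and the means of *TMSB4X*, *TPM4* and *MYH9* were added after their values were seen. Alternatives were total-count scaling, DESeq2 1.42.0, other filters, limma 3.58.1 on log2(TPM + 1) or log2(TPM + 0.1), glmTreat at 1.2-fold, the replicate block and each sample left out. Some genes of the reference and pathway lists are not reported here, and counts over those lists leave them out.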

Additional observations from a re-analysis of the deposited data

How the results depend on the processing

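For the 52 tested members, 781 combinations of a member and an alternative were run. In 660 the direction and the call held, in 49 the call was lost, in 29 it was gained and in 43 the sign turned. Of the 41 members called, 24 held under every alternative run for them and 36 in all fits that left out 1 sample. The 2 called members that changed sign were *ARPC3* and *WAS*, both on the TPM scale. The causes were not tested.

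With total counts the log2 fold change turned to 0.131 for *ACTR3*, 0.140 for *ARPC1B*, 0.0478 for *CORO1B*, 0.0522 for *ZYX*, 0.0743 for *SRF*, 0.125 for *PPIA* and 0.0314 for *RPLP0*, and the median log2 fold change of the members to 0.0128. With limma on log2(TPM + 1), with or without a filter, the values were 0.0969 for *ACTR3*, 0.174 for *ARPC1B*, 0.0187 for *ARPC3*, 0.0708 for *WAS*, 0.0739 for *CORO1B*, 0.0933 for *ZYX*, 0.114 for *SRF*, 0.194 for *PPIA*, 0.0681 for *RPLP0*, 0.0188 for *RPL13A* and 0.0724 for the median. With log2(TPM + 0.1) they were 0.0971, 0.174, 0.0188, 0.0711, 0.0744, 0.0935, 0.115, 0.194, 0.0681, 0.0188 and 0.0728 in the same order. *CORO1A* and *VCL* turned to -0.00927 and -0.00941 with DESeq2 and to -0.0138 and -0.0142 with no filter, and *ARPC1B* to 0.00490 with at least 10 counts in every sample.

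The number of members called higher was 23 with total counts, where 46.1% of all genes rose, and 6 with glmTreat. That of members called lower and 2-fold was 0 with total counts and 0 in each limma fit. The shares of all genes are not given for glmTreat or for these 2-fold counts. Whether those counts are particular to the members can therefore not be told. The number of all genes called lower was 2658 with log2(TPM + 1), 2646 with log2(TPM + 0.1) and 2635 without a filter.

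In fits that each left out 1 sample, *VCL* ranged from -0.0486 to 0.0317, *CORO1A* from -0.0510 to 0.0568, *COTL1* from -0.00467 to 0.0304, *CAPG* from -0.0236 to 0.136, *ARPC1B* from -0.0520 to 0.00763, *PPIA* from -0.0530 to 0.0167 and the log2 ratio CORO1A/CORO1C from -0.0828 to 0.0791. *CAPG* passed without Control replicate 1, *DSTN* without WNK463 replicate 1 (0.154), and *ZYX* without Control replicate 3 (-0.135) or WNK463 replicate 1 (-0.145).

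Deviations from the group means were nearly uncorrelated between samples of equal replicate number (0.02, -0.01 and -0.05 across genes), so the numbers were not taken as pairs. With the replicate block 14 members rose and 26 fell, and *FSCN1* alone lost its call.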
